A study of Homo sapiens with 6 samples.

Results

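The ATP-binding cassette (ABC) genes of A549, together with MVP and TAPBPL, were described across A549 Rec and A549 MOCK. A gene was included when it was annotated as protein coding and its symbol was ABC followed by a subfamily letter from A to G and a number, which gave 45 genes, and MVP and TAPBPL were added by name, so that 47 of the 58676 genes listed were studied. A549 cells are a long-established line from a human lung adenocarcinoma. The A549 Rec cells (3 replicates) had been transduced with a retroviral pMXs-puro vector carrying the cDNA of recoverin, a calcium-binding protein of photoreceptors, with a myc tag, whereas A549 MOCK (3 replicates) received the empty vector, and the transduced cells were selected with puromycin. RNA was taken from 2D cultures kept for 6 days in high-glucose medium with serum and methylcellulose, and the labels name no drug treatment for the cultures that were sequenced. The sources used here do not say whether either line is 1 clone or whether the replicates were separate cultures, and p-values therefore measure only the spread between these libraries, which may be technical.

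ABC proteins bind and hydrolyse ATP, and most of them use that energy to move lipids, peptides, metal complexes, conjugated metabolites or drugs across a membrane. Members of subfamilies B, C and G, such as P-glycoprotein (ABCB1), the multidrug resistance proteins (ABCC genes) and the breast cancer resistance protein (ABCG2), are known for pumping anti-tumor agents out of cells, while the proteins of subfamilies E and F have no membrane part and act in translation. In the lung, ABCA3 is known for loading surfactant lipids into the lamellar bodies of alveolar type II cells, MVP is the main protein of the cytoplasmic vault particle and was first named as a lung resistance-related protein, and TAPBPL edits the peptides bound to MHC class I molecules.

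All values are TPM, a measure of transcript abundance in which the reads of a gene are corrected for its length and each library is brought to a total of 1000000, and they can be compared between genes. The reads behind them numbered 15184021 to 18572859 per library, so that 3 reads on a gene of 5000 bases correspond to 0.103 to 0.122 TPM, a floor that covers counting error only. RCVRN, the transduced gene, was at 0 TPM in every A549 MOCK library and at 322.2, 338.0 and 339.1 TPM in A549 Rec. The mitochondrially encoded genes accounted for 13.6%, 15.7% and 34.5% of all TPM in replicates 1, 2 and 3 of A549 MOCK, as compared with 17.3%, 13.3% and 26.9% for A549 Rec, so that replicate 3 stood apart in both groups. Of the epithelial markers, KRT8, KRT18 and CDH1 were abundant, whereas EPCAM stayed between 0.979 and 2.98 TPM and KRT19 under 0.33 TPM, and the 6 markers of alveolar type II cells summed to 0.0462 to 0.771 TPM. The summed markers of leukocytes reached 0.449 to 1.49 TPM, those of endothelium 0.483 to 0.912 TPM and those of fibroblasts 2.23 to 5.14 TPM, and the erythroid genes HBB and HBA1 were at 0. The leukocyte sum was mostly CD68, at 0.363 to 1.47 TPM, with CD3E at 0 and PTPRC at up to 0.0866 TPM. Nearly all of the fibroblast sum was COL1A1, at 2.21 to 5.14 TPM, with COL1A2 at 0 and DCN at up to 0.0295 TPM.

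Sequence copies bear on which of these genes the values can speak for, and the sequences that show this most directly are those of ABCC6 and ABCF1. ABCC6 is known as the gene mutated in pseudoxanthoma elasticum and lies at chr16:16148928-16223522 on the minus strand, with the unprocessed pseudogenes ABCC6P1 at chr16:18571162-18598328 and ABCC6P2 at chr16:14820792-14824702 on the same chromosome. Its coding exon 4 (chr16:16219554-16219682, minus strand) is shown beside the matching stretches of ABCC6P1 (chr16:18575026-18575154, plus strand) and ABCC6P2 (chr16:14820792-14820920, minus strand), all from the GRCh38 reference and read 5′ to 3′ on the strand of the gene, with capitals at the positions where the 3 sequences differ.
ABCC6: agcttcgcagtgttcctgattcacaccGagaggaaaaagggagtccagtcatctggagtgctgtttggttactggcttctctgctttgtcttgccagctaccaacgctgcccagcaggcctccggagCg
ABCC6P1: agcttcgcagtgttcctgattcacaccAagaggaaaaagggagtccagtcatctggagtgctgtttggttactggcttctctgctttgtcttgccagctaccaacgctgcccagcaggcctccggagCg
ABCC6P2: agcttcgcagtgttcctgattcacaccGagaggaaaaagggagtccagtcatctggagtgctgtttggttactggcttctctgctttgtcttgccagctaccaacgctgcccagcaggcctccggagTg
Counted from 1 at the 5′ end of the exon, ABCC6P1 differs from ABCC6 by G28A and ABCC6P2 by C128T, and the other bases of the 129 are identical in the 3 genes. A later exon without such a copy, coding exon 24 of ABCC6 (chr16:16162993-16163192, minus strand), is shown for contrast, in lower case because no position is marked.
ABCC6 exon 24: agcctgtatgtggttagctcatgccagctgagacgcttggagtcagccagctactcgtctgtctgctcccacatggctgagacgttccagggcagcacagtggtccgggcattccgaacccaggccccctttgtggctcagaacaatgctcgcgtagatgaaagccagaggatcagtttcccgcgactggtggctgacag

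ABCF1, a regulator of translation initiation at chr6:30571376-30597179, lies in the MHC region, for which the GRCh38 reference holds several alternate chromosome 6 sequences beside the primary one. Its coding exon 18 (chr6:30586134-30586305, plus strand, 172 bases) is shown because it was found once on chromosome 6 and again letter by letter on 6 alternate sequences.
ABCF1 exon 18: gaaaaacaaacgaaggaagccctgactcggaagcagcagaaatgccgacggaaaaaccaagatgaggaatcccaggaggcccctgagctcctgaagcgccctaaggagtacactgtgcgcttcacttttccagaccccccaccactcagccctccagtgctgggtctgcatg

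A549 expressed ABC genes of every subfamily, and subfamily C, the multidrug resistance protein family, held the largest share of the summed ABC TPM among the 7 subfamilies. A gene was counted as expressed and tested when 3 or more of the 6 libraries had a TPM of at least 1, which held for 27 of the 47 genes, 25 of them ABC genes. By subfamily, 6 of 12 genes passed in A, 4 of 9 in B, 7 of 11 in C, 3 of 4 in D, 1 of 1 in E, 2 of 3 in F and 2 of 5 in G. Of the 20 genes that did not pass, 17 were detected, 8 of them with a mean under 0.1 TPM, and ABCF1, ABCG5 and ABCG8 had no read in any library. The share of subfamily C in the summed ABC TPM was 51.5%, 53.5% and 60.4% in the A549 MOCK libraries, as compared with 53.1%, 52.5% and 56.1% for A549 Rec, that is 55.1% ± 4.66 (SD, n = 3) as compared with 53.9% ± 1.91 (SD, n = 3). Its highest share was in replicate 3 of each group. Subfamily B followed with 12.9% ± 1.26 and 13.7% ± 1.14, subfamily A with 11.1% ± 0.65 and 11.0% ± 0.17, and ABCE1, which is the whole of subfamily E, with 7.62% ± 1.42 and 8.07% ± 0.49 (A549 MOCK and A549 Rec, SD, n = 3 each). Subfamilies D and F each took between 5.16% and 6.67% in every library, and subfamily G was the smallest at 1.25% to 1.98%. The share of F counts ABCF1 at 0, a value that does not show its absence, as given below.

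**Figure D1:**
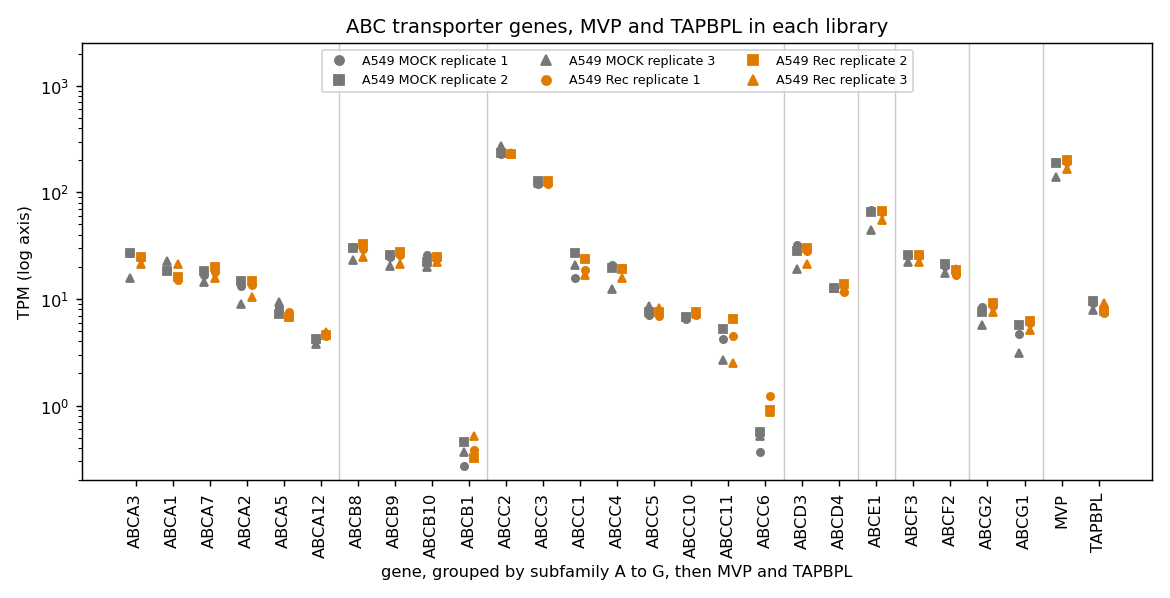
TPM on a log axis of 25 of the 27 tested genes and of ABCB1 and ABCC6, grouped by subfamily, with 1 point per library (grey, A549 MOCK; orange, A549 Rec; circle, square and triangle, replicates 1, 2 and 3). ABCC2, MVP and ABCC3 lie above 100 TPM, ABCB1 lies under 1 TPM, and the points of both groups overlap for all tested genes shown except ABCA12 and ABCC10. Of all tested genes, 2.47% lie wholly higher in A549 Rec, as these do.

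Among the known drug efflux pumps, A549 expressed ABCC2 and ABCC3 far above the others, and ABCB1 was close to the floor. ABCC2 (MRP2), which exports glucuronide and glutathione conjugates at apical membranes, was at 228.5, 234.5 and 271.4 TPM in A549 MOCK and at 231.2, 230.0 and 236.4 TPM in A549 Rec. ABCC3 (MRP3), a related exporter of glucuronides at basolateral membranes, was at 120.3, 128.0 and 123.5 TPM in A549 MOCK and at 120.0, 129.1 and 124.6 TPM in A549 Rec. The groups overlapped for both genes, and ABCC2 was 1.78 to 2.20 times as high as ABCC3 within each library. These 2 genes made up 44.4% to 53.3% of the summed ABC TPM.

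ABCC1 and ABCC4 formed the next level, and their ranges overlapped each other. ABCC1 (MRP1), an exporter of glutathione conjugates and of several anti-tumor agents, was at 15.9, 26.8 and 20.7 TPM in A549 MOCK and at 18.7, 23.5 and 16.7 TPM in A549 Rec, a spread within each group that exceeded the difference between them. ABCC4 (MRP4), which exports cyclic nucleotides and nucleotide analogues, was at 21.1, 19.5 and 12.4 TPM and at 19.7, 19.2 and 15.6 TPM, with the lowest value of each group in replicate 3.

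ABCG2, ABCC5 and ABCC10 followed at levels that could not be ordered, since their ranges over the libraries overlapped. ABCG2, the breast cancer resistance protein, was at 8.46, 7.60 and 5.69 TPM in A549 MOCK and at 8.57, 9.09 and 7.52 TPM in A549 Rec. ABCC5 (MRP5), an exporter of nucleotide analogues, was at 7.10, 7.56 and 8.60 TPM and at 6.97, 7.58 and 8.29 TPM. ABCC10 (MRP7), which is known to carry taxanes, was at 6.51, 6.80 and 6.81 TPM in A549 MOCK and at 7.13, 7.49 and 7.16 TPM in A549 Rec. Its groups did not overlap on this scale, as for 2.47% of all tested genes higher in A549 Rec. After rescaling without mitochondrially encoded genes they overlapped, at 7.53, 8.07 and 10.4 TPM as compared with 8.63, 8.65 and 9.80 TPM. The remaining tested member of subfamily C, ABCC11, an exporter of lipophilic anions known from apocrine glands, had a mean of 4.26 TPM and ran from 2.51 TPM, in replicate 3 of A549 Rec, to 6.42 TPM, in replicate 2 of the same line.

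ABCB1 (chr7:87503633-87713323), which encodes P-glycoprotein, the best known pump of taxanes, was at 0.274, 0.454 and 0.368 TPM in A549 MOCK and at 0.379, 0.324 and 0.523 TPM in A549 Rec. These values rest on 8, 13 and 12 reads as compared with 11, 11 and 16 reads, the groups overlapped, and a change in so few reads was not detectable at this depth unless it was large. The mean TPM of ABCC2 was 616 times that of ABCB1. The 8 pumps together summed to 408.1, 431.2 and 449.5 TPM in A549 MOCK and to 412.6, 426.4 and 416.8 TPM in A549 Rec, that is 429.6 ± 20.7 as compared with 418.6 ± 7.06 TPM (SD, n = 3), and this difference of -11.0 TPM was within the spread (exact permutation test, two-sided, p = 0.5, where 3 libraries against 3 cannot give less than 0.1).

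No tested ABC gene, nor MVP or TAPBPL, was called as differentially expressed between A549 Rec and A549 MOCK in limma. The paper called genes in both directions with DESeq2 on read counts, at the same thresholds of adjusted p and fold change as used here. Its list was not compared here. In limma on log2(TPM + 1) with Benjamini-Hochberg adjustment over the 17408 tested genes, 0 of 27 had an adjusted p under 0.05 with a fold change of at least 2, as compared with 0.00574% of all tested genes, which was RCVRN alone. With RCVRN as the only call of this fit, the 0 of 27 does not set these genes apart from the others. At an unadjusted p under 0.05 the count was also 0 of 27, as compared with 2.06% of all tested genes, 1.02% higher and 1.04% lower in A549 Rec. Limma with voom weights on reads recovered from the TPM called 0 of 41 at the adjusted p and fold thresholds. In that fit 3 of 41, all under the filter on TPM, had an unadjusted p under 0.05, as compared with 1.96% of all genes. Of these, ABCB5 and ABCC12 reached the minimum of 10 reads for this fit only through A549 Rec, so that the count cannot support a difference. The smallest unadjusted p of the 27 in limma on log2(TPM + 1) was 0.141, for ABCA5. The log2 differences ran from -0.21 to 0.32 with a median of 0.04, as compared with a median of 0.02 over all tested genes. Of the 27 genes, 17 were above 0 and 10 below, as compared with 56.6% of all tested genes above 0. When TPM was rescaled without mitochondrially encoded genes, 13 were above 0 and 14 below, as compared with 42.3% of all tested genes above 0.

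**Figure D2:**
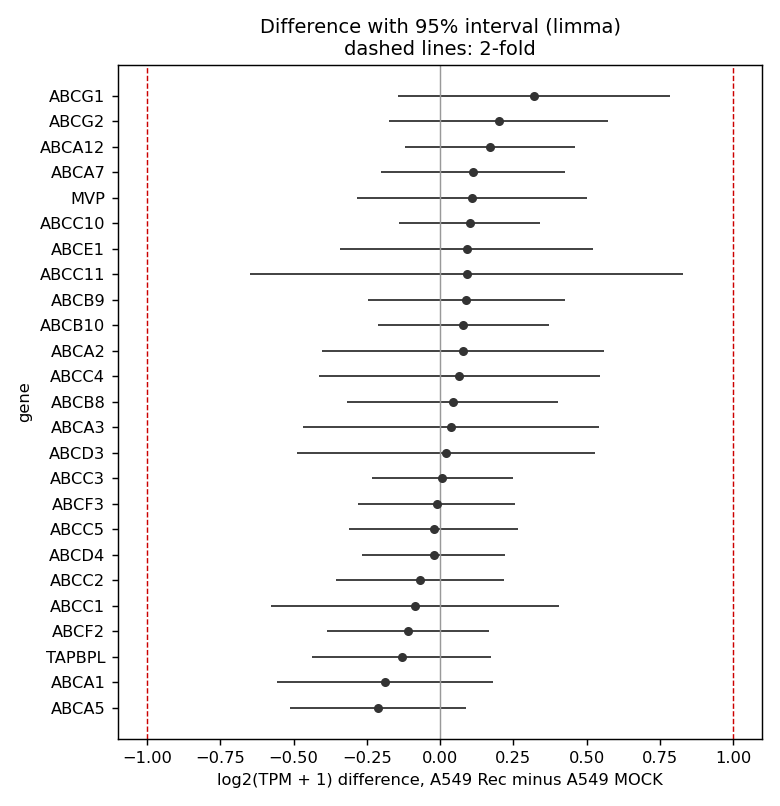
Difference in log2(TPM + 1), A549 Rec minus A549 MOCK, for 25 of the 27 tested genes in order of size, with the 95% interval from limma as a bar and dashed lines at a 2-fold change. Every interval shown includes 0 and lies within the dashed lines.

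The 95% intervals limit how large a change in the pumps these libraries could have missed. For ABCC3 the log2 difference was 0.01 (SE 0.10, interval -0.23 to 0.25), and for ABCC2 it was -0.07 (SE 0.12, interval -0.36 to 0.22). The difference was -0.02 for ABCC5 (interval -0.31 to 0.27) and 0.10 for ABCC10 (SE 0.10, interval -0.14 to 0.34). ABCC1, at -0.09 (SE 0.21, interval -0.58 to 0.41), and ABCC4, at 0.07 (SE 0.20, interval -0.42 to 0.55), were the least precise of the tested pumps. ABCG2 had a difference of 0.20 (SE 0.16, interval -0.17 to 0.57). All of these had an adjusted p of 0.9997 in limma with Benjamini-Hochberg adjustment, and all of these intervals lie within a 2-fold change.

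Of the 3 largest differences in each direction, those of ABCG1, ABCG2 and ABCA12 above 0 and of ABCA5, ABCA1 and TAPBPL below 0, 4 belonged to lipid transporters, and none passed the test. ABCG1, which loads cholesterol onto high-density lipoprotein, was at 4.67, 5.70 and 3.14 TPM in A549 MOCK and at 5.95, 6.26 and 5.08 TPM in A549 Rec, a log2 difference of 0.32 (SE 0.20, limma adjusted p = 0.9997). ABCA12, a carrier of glucosylceramides known from the epidermis, was at 4.20, 4.20 and 3.75 TPM and at 4.53, 4.58 and 4.92 TPM, a log2 difference of 0.17 (SE 0.12). Its groups did not overlap on TPM as deposited, as for 2.47% of all tested genes higher in A549 Rec, whereas those of ABCG1 did. After rescaling without mitochondrially encoded genes the groups overlapped for ABCA12 and not for ABCG1. ABCA5, an endolysosomal lipid transporter, was at 8.48, 7.20 and 9.45 TPM in A549 MOCK and at 7.47, 6.76 and 6.97 TPM in A549 Rec, a log2 difference of -0.21 (SE 0.13). ABCA1, which exports cholesterol to apolipoprotein A-I, was at 18.8, 18.2 and 22.6 TPM and at 15.05, 16.0 and 21.2 TPM, a log2 difference of -0.19 (SE 0.16). The groups overlapped for ABCA5 and for ABCA1.

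ABCA12 and ABCC10 were the 2 of 27 genes, 7.41%, whose A549 Rec libraries all lay above the A549 MOCK libraries, as compared with 2.47% of all tested genes, and 0 lay wholly below, as compared with 2.69%. Which genes did so differed between TPM as deposited and rescaled TPM. After rescaling without mitochondrially encoded genes, the 3 genes that did not overlap were ABCG1, ABCG2 and MVP, all higher in A549 Rec, as compared with 2.78% of all genes, and 0 lay wholly below, as compared with 3.84%. On that scale ABCG2 was at 9.79, 9.02 and 8.69 TPM in A549 MOCK, as compared with 10.4, 10.5 and 10.3 TPM for A549 Rec. The summed TPM of subfamily G as deposited was 13.7, 13.5 and 9.26 for A549 MOCK, as compared with 15.3, 15.8 and 12.7 for A549 Rec (exact permutation test, two-sided, p = 0.3, adjusted p = 0.9 over 7 subfamilies), and after rescaling its groups no longer overlapped, with p = 0.1, the smallest the exact test can give, and an adjusted p of 0.7.

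Several organelle transporters of subfamilies B and D passed the filter. ABCB8, of the mitochondrial inner membrane, was at 30.8, 30.3 and 23.4 TPM in A549 MOCK and at 29.3, 32.7 and 25.0 TPM in A549 Rec. The lysosomal peptide transporter ABCB9 had a mean of 24.3 TPM and the mitochondrial ABCB10 one of 23.2 TPM. ABCD3, a peroxisomal carrier of fatty acyl groups, was at 32.2, 28.0 and 19.2 TPM and at 28.3, 30.1 and 21.2 TPM. ABCD4, which acts in lysosomal cobalamin transport, was at 12.8 TPM throughout A549 MOCK, as compared with 11.6, 13.7 and 12.5 TPM for A549 Rec. The groups overlapped for ABCB8, ABCB9, ABCB10, ABCD3 and ABCD4, and ABCD2 was seen with 1 read in 1 library.

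Of the 4 genes of subfamilies E and F, 3 were tested and ABCF1 was at 0, which does not show that A549 lacks it. ABCE1, which splits ribosomes after termination, was at 68.2, 65.4 and 44.5 TPM in A549 MOCK and at 64.9, 67.1 and 55.2 TPM in A549 Rec. ABCF3 was at 26.1, 25.6 and 22.1 TPM and at 25.2, 25.7 and 22.3 TPM, and ABCF2 at 20.3, 21.4 and 17.6 TPM and at 16.7, 18.7 and 19.3 TPM. The groups overlapped for ABCE1, ABCF3 and ABCF2.

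In subfamily A, ABCA3, the surfactant lipid transporter, was at 27.3, 27.2 and 15.7 TPM in A549 MOCK and at 24.2, 24.7 and 21.2 TPM in A549 Rec. Its lowest values were in replicate 3 of each group, the groups overlapped, and its level was far above the summed markers of alveolar type II cells in the same libraries. ABCA7, a phospholipid transporter, had a mean of 17.3 TPM and ABCA2, an endolysosomal lipid transporter, one of 12.6 TPM. The 14 tested genes whose log2 difference is not given singly lay between -0.11 and 0.11.

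MVP was at 193.4, 190.2 and 139.4 TPM in A549 MOCK and at 190.9, 203.5 and 166.2 TPM in A549 Rec, a log2 difference of 0.11 (SE 0.17, interval -0.28 to 0.50). It was the only gene beside ABCC2 and ABCC3 with a mean over 100 TPM among the 47, and its groups overlapped. TAPBPL was at 9.15, 9.68 and 7.94 TPM and at 7.35, 7.68 and 9.17 TPM, a log2 difference of -0.13 (SE 0.13, interval -0.44 to 0.17). Replicate 3 was the lowest library of A549 MOCK and the highest of A549 Rec for TAPBPL, so that the same-numbered libraries did not move alike.

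Replicate 3 was the lowest library in both groups for 16 of the 27 genes, 59.3%, as compared with 49.5% of all tested genes, and the highest in both for ABCA1, ABCC2 and ABCC5, 3 of 27, as compared with 8.58%. These were also the libraries with the most mitochondrial TPM in each group, and the part of that share in the levels was not tested. Without A549 MOCK replicate 3 the median log2 difference of the 27 genes was -0.08.

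Among the genes under the filter, ABCA10 had a mean of 0.826 TPM, ABCB6, a porphyrin transporter, of 0.638 TPM, ABCC8, the sulfonylurea receptor of beta cells, of 0.459 TPM and ABCG4 of 0.429 TPM. ABCA8, ABCA4, the retinoid transporter of photoreceptors, and ABCA9 were at 0.257, 0.256 and 0.188 TPM. The 8 genes under 0.1 TPM were ABCA6, ABCB5, ABCB4, ABCC12, ABCB11, the bile salt export pump, ABCC9, ABCA13 and ABCD2. ABCB5 was seen with 2, 0 and 3 reads in A549 MOCK, as compared with 7, 7 and 5 for A549 Rec, and ABCC12 with 0, 1 and 0 reads as compared with 4, 6 and 2. Both were higher in A549 Rec in each library, and how often genes under the filter do so was not counted. In voom their unadjusted p was 0.0344 and 0.0160 with an adjusted p of 1.00 in both cases, so that neither passed. Of all genes in that fit, 1.96% had an unadjusted p under 0.05. The voom fit took genes with at least 10 reads over the 6 libraries, which ABCB5 and ABCC12 reached only through A549 Rec. Their p-values therefore cannot support a difference. ABCG5 and ABCG8, the paired sterol exporters of liver and intestine, lie head to head with overlapping ends on chromosome 2. Each had 0 reads in every library, which allows up to 3 reads per library.

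Copies on alternate sequences of the reference covered nearly all of the exons of ABCF1, ABCC1 and ABCC6, which had very different levels. All exon words of 50 bases of ABCF1, 95.1% of those of ABCC1, 94.6% of those of ABCC6 and 66.1% of those of ABCB11 were also found on an alternate sequence of GRCh38, and these were the 4 of 47 genes with over 50%. ABCF1 was at 0 TPM in all 6 libraries, while ABCC1 was at 15.9 to 26.8 TPM. Within 200 kb of ABCF1, 11 of 15 protein-coding genes, ABCF1 included, were listed at 0 in every library, among them TUBB and FLOT1, and all 11 had over 50% of their words on alternate sequences. The other 4 genes of this window were detected, at up to 4.47 TPM for IER3, and had 96.2% to 100% of their words there as well. TAP1, TAP2 and TAPBP, the ABC peptide transporter of MHC class I loading and its partner, also lie in the MHC region and were at 0 except for TAP2 at 0.0297 TPM in 1 A549 Rec library. The values of these genes, ABCF1 included, therefore do not show that A549 lacks them, and whether the index that the authors mapped to held the alternate sequences is not given in the sources used here and was not tested.

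**Figure D3:**
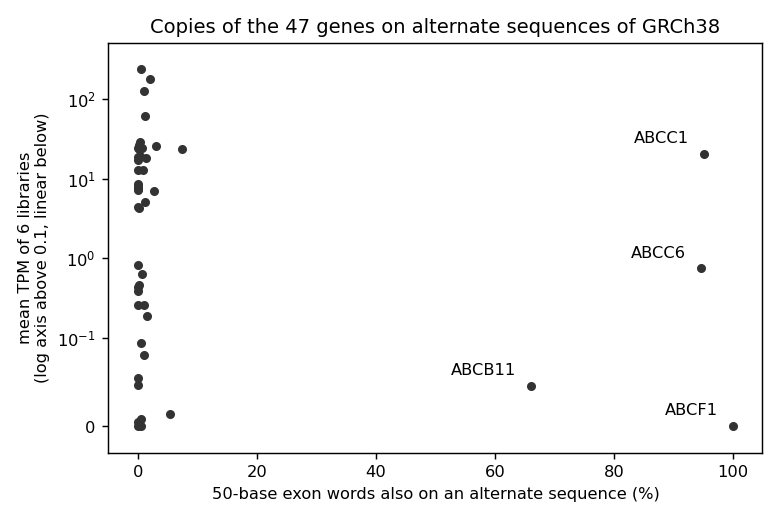
Mean TPM of the 6 libraries against the percentage of 50-base exon words that are also found on an alternate GRCh38 sequence, with 1 point for each of the 47 genes and a TPM axis that is linear below 0.1 and logarithmic above. ABCF1 sits at 100% and 0 TPM, and ABCC1, at 95.1%, lies among the expressed genes.

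Copies on the primary chromosomes exceeded 10% of the exon words for ABCC6 alone among the 47 genes. It had 19.2% of its words elsewhere on the primary sequence, with 15.1% of all its words found within ABCC6P1 and 11.1% within ABCC6P2. Of its 31 coding exons, 8 matched ABCC6P1 at 95% or more, with 8 differing bases over 993, and 4 matched ABCC6P2, with 4 differing bases over 474. Exon 2 is not among the 8 but still matched ABCC6P1 at 91.8% without gaps. The next genes by this measure were ABCE1 at 9.97%, ABCF1 at 7.44% and ABCB10 at 7.29%, and the pseudogenes ABCB10P3, ABCB10P4, ABCF2P1 and ABCF2P2 were at 0, with 1 read for ABCB10P1 in 1 library.

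**Figure D4:**
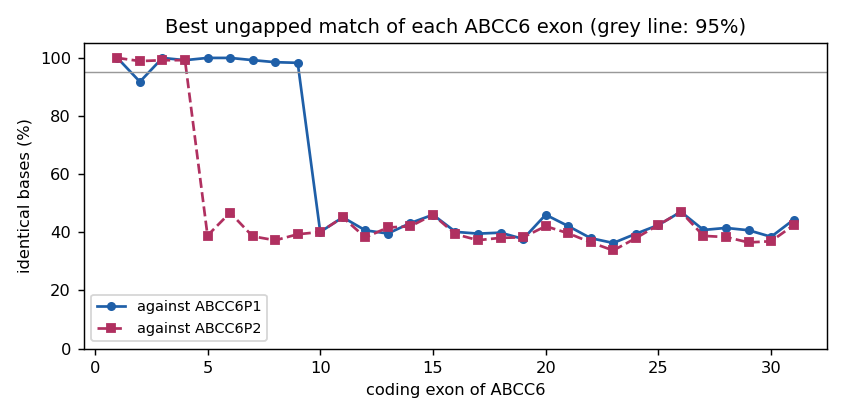
Identical bases, in percent, of each of the 31 coding exons of ABCC6 in its best match without gaps in ABCC6P1 (blue circles) and in ABCC6P2 (red squares), by exon number. The exons matching at 95% or more (grey line) lie at the start of the gene, 8 for ABCC6P1 and 4 for ABCC6P2. Exon 2 lies under that line for ABCC6P1, at 91.8%. Exons 5 to 9 lie below 50% for ABCC6P2, and exons 10 to 31 for both.

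In limma without the filter on low TPM, 1 of the 44 detected genes, ABCC6, had an unadjusted p under 0.05, with a higher level in A549 Rec. This count, 2.27%, lay near the 2.39% of the 29900 genes in that fit, both counted in either direction. ABCC6 was at 0.367, 0.563 and 0.518 TPM in A549 MOCK and at 1.22, 0.904 and 0.878 TPM in A549 Rec, which rest on 14, 21 and 22 reads as compared with 46, 40 and 35. All A549 Rec libraries were above all A549 MOCK libraries, and the share of genes under the filter that do so was not counted. Without the filter its log2 difference was 0.43 (SE 0.14, unadjusted p = 0.0199), which failed the correction, with adjusted p-values of 0.906 to 1.00 over the fits that included it, and when the replicate number entered the fit as a block, an alternative added after seeing the data, the unadjusted p was 0.0547. In voom on the recovered reads the log2 difference was 1.00 with an unadjusted p of 0.0100, and 0.98 with an unadjusted p of 0.0113 with the replicate block.

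Reads of the near-identical pseudogenes cannot be told apart with certainty from those of the first exons of ABCC6. ABCC6P1 had 10, 16 and 18 reads in A549 MOCK, as compared with 9, 11 and 14 for A549 Rec, and ABCC6P2 had 8, 0 and 0 as compared with 0, 2 and 1. Scaled to 1000000 reads outside mitochondrial genes, ABCC6 was at 1.33 ± 0.38 as compared with 2.65 ± 0.46 (SD, n = 3, two-sided exact permutation p = 0.1, which is the smallest possible), a ratio of 1.99. ABCC6P1 was at 1.03 ± 0.36 as compared with 0.751 ± 0.23 (exact permutation p = 0.2). The reads of the 3 genes together, at 2.54 ± 0.46 as compared with 3.46 ± 0.42, gave a ratio of 1.36 with overlapping groups (exact permutation p = 0.2). Before this scaling they were 32, 37 and 40 reads as compared with 55, 53 and 50 and did not overlap, whereas the summed TPM of the 3 genes, in which a read on the shorter ABCC6P2 weighs more, gave a ratio of 0.992 as deposited and 0.977 after rescaling. For the scaled reads, the Benjamini-Hochberg adjusted p over the 4 values, ABCC6P2 included, was 0.267 for ABCC6, for ABCC6P1 and for the sum. How the authors counted reads that map to several places is not given in the sources used here.

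**Figure D5:**
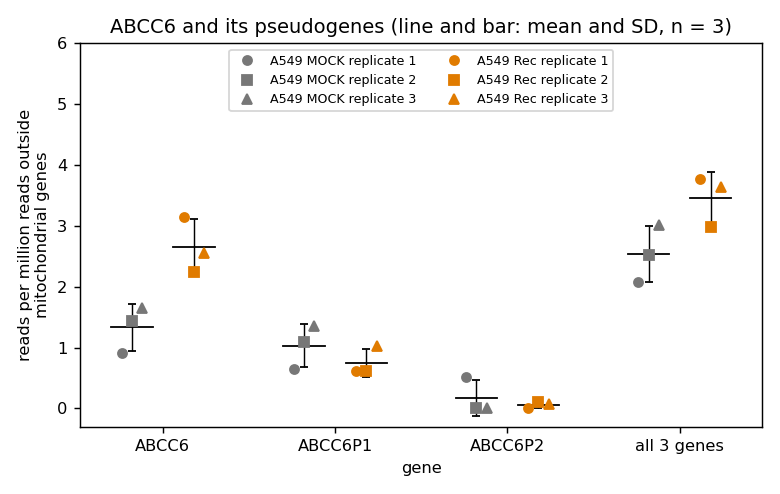
Reads per 1000000 reads outside mitochondrial genes for ABCC6, ABCC6P1, ABCC6P2 and the sum of the 3 genes in each library, with the mean and SD (n = 3) of each group as a line and bar. ABCC6 lies higher in the 3 A549 Rec libraries than in the 3 A549 MOCK libraries, while the sum of the 3 genes overlaps between the groups.

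Some further genes share exon sequence with a neighbour in GENCODE v44, an annotation that need not be the authors' release. ABCF2 shares 37.1% of its exon bases with the read-through gene ABCF2-H2BK1 on the same strand, and ABCB6 shares 54.6% with an unnamed gene. On the opposite strand, 24.6% of the exon bases of ABCB9 and 10.6% of those of TAPBPL, in the latter case those of VAMP1, are covered by other genes, and the strand setting of the counting is not given in the sources used here.

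Genes that act with the ABC proteins in drug and metal handling were likewise without a call. Of the 4 genes of antifolate transport and retention, which bear on pemetrexed, 4 were tested and 0 had an unadjusted p under 0.05, with the hydrolase GGH at 36.3 to 46.7 TPM and the synthase FPGS at 37.0 to 43.6 TPM over the 6 libraries. The 4 genes of copper and platinum transport gave 0 of 4, with the copper importer SLC31A1 at 28.6 to 38.6 TPM. Of 15 organic solute carriers of drugs 10 were tested and 0 passed, SLC22A3 reaching 54.8 to 90.8 TPM and the nucleoside carrier SLC29A2 62.9 to 67.2 TPM. Of the vault components, MVP, PARP4 and TEP1, 0 of 3 passed, and of the peptide loading complex 3 of 6 were tested and 0 passed, with the chaperone CALR at 935 to 1325 TPM. Of 12 regulators of ABC genes 10 were tested and 0 passed, the sterol-sensing receptor NR1H2 being at 72.9 to 108.5 TPM, SREBF2 at 58.9 to 87.5 TPM and KEAP1 at 43.6 to 67.0 TPM, whereas the pregnane X receptor NR1I2 was at 0. The channel partners of the sulfonylurea receptors, KCNJ8 and KCNJ11, and the peroxisomal factors PEX3 and PEX19 gave 0 of 2 each. Over these lists the share at an unadjusted p under 0.05 in all tested genes was 2.06%, as given for the ABC genes.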

How the data were processed

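RNA-seq libraries of A549 MOCK and A549 Rec (3 replicates each) were grouped by the labels, which number the replicates 1 to 3 in each group. The authors trimmed reads with Trimmomatic 0.38, mapped them with HISAT2 to GRCh38 and counted them with featureCounts 1.6.3, and deposited TPM for all genes, with mitochondrial genes included and no scaling between libraries beyond that. The submitters' processing notes name HISAT2 2.1.0 and mouse builds, whereas the gene identifiers are human. The annotation release, strand setting and treatment of multi-mapping reads are not given in the sources used here.

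The members and lists were chosen with earlier results of these data known. The main test was limma 3.58.1 (R 4.3.3, trend) on log2(TPM + 1) for genes with TPM of at least 1 in at least 3 libraries, with Benjamini-Hochberg adjustment over 17408 genes. Log2 differences on this scale understate changes of low genes. Reads were recovered from the TPM steps of 29900 detected genes, and 13901 of the recovered lengths equal the GENCODE v44 exon length, among them those of 11 of the 44 detected members. For the other genes the shortest length that gave whole reads was taken. Reads are whole by construction, so the recovery is not tested by this. Depth was 15184021 to 18572859 reads. Exon words of 50 bases were searched in 455 reference sequences, 261 of them alternate.

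Values in every library are given for the pumps, MVP, TAPBPL, the 2 highest genes of each subfamily, the 3 largest tested differences in each direction, and ABCC6 with its pseudogenes, except that 2 of the tested genes enter the counts, sums and medians but are not reported singly here; ABCB5 and ABCC12 were chosen after their values were seen. Same-numbered libraries deviated together from their group means (correlations 0.11, 0.16 and 0.34), and the number paired them only in the fits with the replicate block. The main fit and the exact tests given here did not use the pairs. Replicate 1 of A549 MOCK also correlated with replicate 2 of A549 Rec (0.13) and replicate 2 with replicate 1 (0.068), and only replicate 3 stood apart from the others. Alternatives were a pseudocount of 0.1, no filter, quantile normalization, rescaling without mitochondrial genes, no trend, the replicate block, voom on recovered reads and leaving out each library. The fit without the filter and with the block was added after seeing the data. Every column was matched to a sample.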

Additional observations from a re-analysis of the deposited data

How the results depend on the processing

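No gene of the 27, nor any tested without the filter, was called in any alternative. The count at an unadjusted p under 0.05, 0 of 27, was 1 of 44 without the filter on low TPM (ABCC6, as compared with 2.39% of all genes in that fit), 1 of 27 with the replicate block on rescaled TPM (ABCA1, 5.03%), 3 of 41 with voom on recovered reads (ABCB5, ABCC12 and ABCC6, 1.96%) and 5 of 41 with voom and the replicate block (ABCA1, ABCA5, ABCC12, ABCC6 and ABCG1, 4.90%), and it was 0 to 1 of 27 when 1 library was left out, with ABCG1 at a log2 difference of 0.48 without A549 MOCK replicate 2 (2.17%). The cause was not tested. The voom fits took genes with at least 10 reads over the 6 libraries, which ABCB5 and ABCC12 reached only through A549 Rec. Their places in the voom counts therefore cannot support a difference. The replicate block changed no other call, and without the filter, block included, the count was 0. A block cannot change the -11.0 TPM between the balanced groups in the summed pumps. The median log2 difference of the members turned from 0.04 to -0.00053 on TPM rescaled without mitochondrial genes, with and without the replicate block, and ran from -0.082 to 0.13 over the left-out libraries, being -0.082 without A549 MOCK replicate 3 and -0.02 without A549 Rec replicate 2. Rescaling moved the median of all genes from 0.02 to -0.02. The difference in the summed pumps kept its sign, at -36.3 after rescaling, -34.1 after quantile normalization and -21.8 to -1.09 over the left-out libraries. Of 227 values for 15 genes, 213 kept direction and call and 14 reversed, 9 of them with a library left out. ABCC3 turned to -0.040 with quantile normalization, to -0.037 with rescaling, with and without the replicate block, to -0.028 with voom and to -0.030 with voom and the replicate block. Over the left-out libraries the log2 difference ran from -0.27 to 0.10 for ABCC1, -0.12 to 0.0062 for ABCC2, -0.019 to 0.033 for ABCC3, -0.16 to 0.20 for ABCC4, -0.078 to 0.047 for ABCC5 and -0.042 to 0.19 for MVP. The all-gene count of genes called in these fits was 1, and 6 without the filter, 6 without trend, 5 with voom and the replicate block and 2 without A549 Rec replicate 2. Reads under about 20 per library, as for ABCB1 and most genes under the filter, limit what can be seen.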
